A study of Mus musculus with 72 samples.

Results

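The cytochrome P450 genes of families 1 to 3 were taken as the 57 protein-coding genes of the GENCODE M21 mouse annotation whose symbol is Cyp, a family number from 1 to 3, a subfamily letter and a gene number, with Cyp2f2 left out. The tables held 36047 gene identifiers in all. The RNA came from EGFR DEL19 mice, which carry a human epidermal growth factor receptor transgene with the DEL19 mutation. All animals, controls included, had received doxycycline for 25 days, and lung tumours had been looked for by micro-CT. They were then injected intravenously with 10 mg/kg of 1 of 3 genetic circuits driven by the CMV promoter, 7 times at intervals of 2 days, and tissues were taken on day 14. CMV-GE11-siRE encodes an siRNA against EGFR together with GE11, a peptide that binds the receptor. CMV-siRE encodes the siRNA without the peptide, and CMV-scrR encodes a scrambled RNA and is the control. Liver, kidney, lung, spleen, thymus and lung tumour each had 4 libraries per circuit, 72 in all. The labels give no sex or age, no promoter for the transgene, and do not say whether the 4 libraries of a group are 4 animals.

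P450 enzymes are haem proteins of the endoplasmic reticulum that insert an oxygen atom into drugs, pollutants, steroids and fatty acids, using electrons from the reductase Por. Families 1 to 3 hold most of the drug-metabolising members and are expressed above all in hepatocytes. Their genes are switched on by ligand-activated receptors, such as the aryl hydrocarbon receptor (AhR, gene Ahr) for Cyp1a1, the constitutive androstane receptor (CAR, gene Nr1i3) for Cyp2b10 and the pregnane X receptor (PXR, gene Nr1i2) for Cyp3a11. Many lie in clusters of related genes. Here there were 15 Cyp2c genes on chromosome 19, with Cyp2c23 apart from the others, 8 Cyp2d genes on chromosome 15 and 8 Cyp2j genes on chromosome 4. Their likeness varied. Of the 50-base stretches of Cyp2c40 60.3% also occur in other genes, but among the Cyp2j genes the share was at most 2.32% (Cyp2j7).

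Values are the authors' normalized gene values, normalized in each tissue on its own, so that no test was made across tissues. Column totals lay between 16.9 M and 21.4 M in the 5 organs and between 5.87 M and 43.8 M in tumour. Human EGFR, which is in the tumour table, was at 39.2 to 132 with CMV-GE11-siRE, 452 to 1324 with CMV-siRE and 1992 to 4025 with CMV-scrR. Markers of the labelled tissues were present in every library, at no less than 992093 for the hepatocyte gene Alb in liver, 54488 for the proximal tubule gene Slc34a1 in kidney, 191896 for the surfactant gene Sftpc in lung and 35101 in tumour, 12077 for the B cell gene Cd79a in spleen and 28229 for the thymocyte gene Rag1 in thymus. Each circuit was compared with limma on log2(value + 1), with 3 group means over 12 libraries, Benjamini-Hochberg adjustment over all genes tested in the tissue and a threshold of 0.05. Differences are given on this log2 scale with the standard error (SE) of the fit. The scale understates the change of genes with low values. Only genes with a value of 10 or more in 4 or more libraries of the tissue were tested. Both EGFR circuits were set against the same 4 CMV-scrR libraries, so their differences from it are not independent.

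The filter was passed by 45 of the 57 members in liver, 22 in kidney, 16 in lung, 10 in spleen, 15 in thymus and 9 in tumour. In no tissue was it passed by 8 members (Cyp2b23, Cyp2c65, Cyp2c66, Cyp2d11, Cyp2j12, Cyp2j8, Cyp2w1 and Cyp3a57). It was passed in 1 tissue by 23 members, in 2 to 5 tissues by 10, 5, 1 and 5 members, and in all 6 by 5, namely Cyp1b1, Cyp2d22, Cyp2e1, Cyp2j6 and Cyp2s1. In the CMV-scrR livers the most abundant member per kilobase of exon was Cyp2e1, the ethanol-inducible P450, at 26352 ± 2450 (SD, n = 4). Cyp3a11 followed at 8280 ± 1102, then Cyp2d26 at 7977 ± 777 and Cyp2c69 at 6752 ± 3217, and these 3 overlapped within their spread. Cyp2c70, which makes muricholic acids from bile acids, had 6570 ± 790 per kilobase, and Cyp1a2, a constitutive hepatocyte enzyme, 6474 ± 1304. Cyp1a1 stood near the bottom of the tested members at 5.28 ± 2.00 per kilobase.

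The order of levels was different in each tissue, with each table normalized separately. Kidney under CMV-scrR was led by Cyp2j5, which turns arachidonic acid into epoxides, at 7281 ± 249 per kilobase (SD, n = 4), and by Cyp2d26 at 6169 ± 1238, followed by Cyp2j11 at 1375 ± 122. Lung was led by Cyp2b10 at 1805 ± 163, Cyp2s1 at 652 ± 105 and Cyp1a1 at 357 ± 207. In spleen the leading member was Cyp1b1, which acts on oestradiol and is found mainly outside the liver, at 168 ± 41.5. In thymus it was Cyp2a5, a coumarin hydroxylase, at 94.4 ± 15.5, with Cyp1b1 second at 53.5 ± 11.2. Tumour shared its 2 leading members with lung, Cyp2b10 at 139 ± 34.0 and Cyp2s1 at 39.1 ± 33.2 per kilobase.

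**Figure D1:**
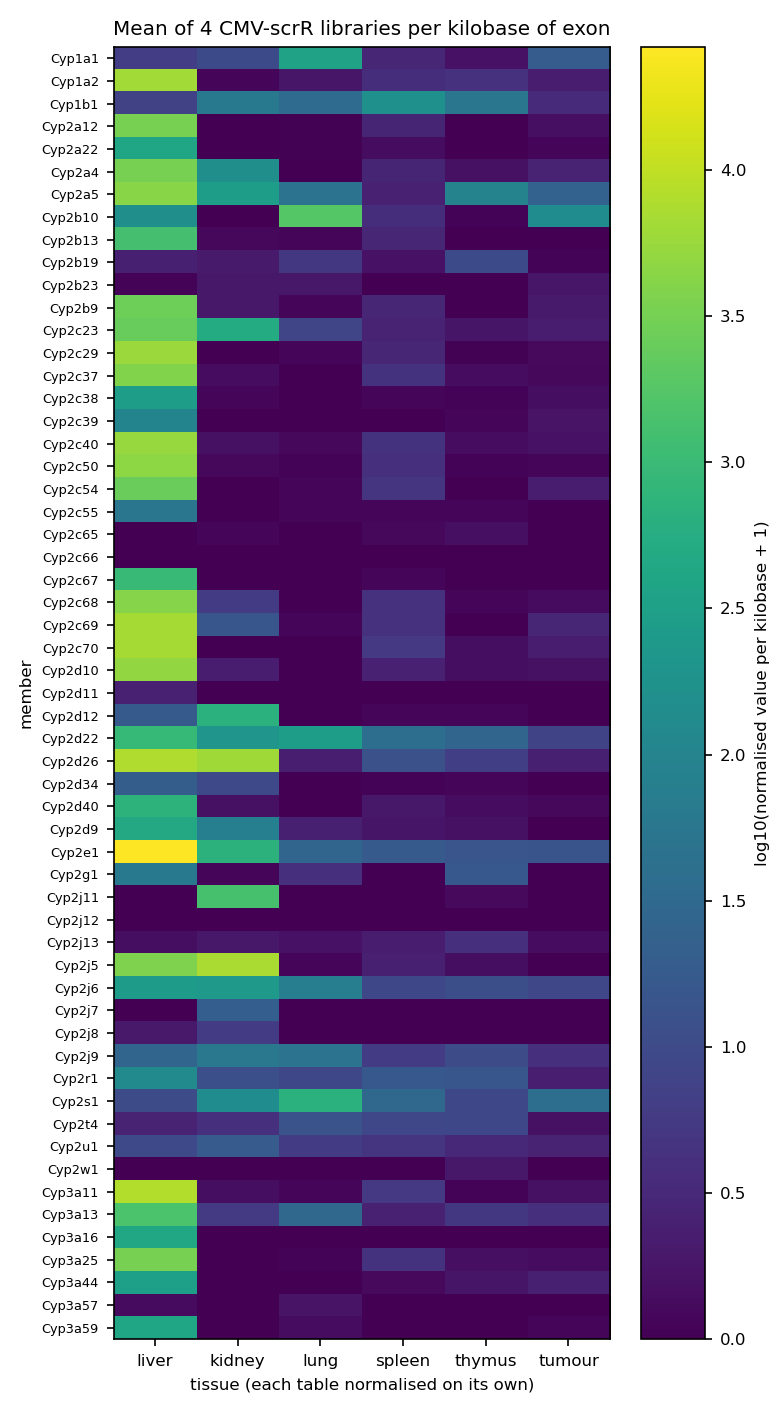
Mean level of the 57 members in the 4 CMV-scrR libraries of each of 6 tissues, as log10 of the value per kilobase of exon plus 1, with each tissue's table normalized on its own. Liver holds most of the high levels, kidney is led by Cyp2j5 and Cyp2d26, and lung by Cyp2b10.

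In liver, 6 members rose with CMV-GE11-siRE against CMV-scrR and none fell. They were Cyp1a1 and Cyp1a2 of family 1, Cyp2b10 and Cyp2c67 of family 2, and Cyp3a11 and Cyp3a25 of family 3, with fitted folds between 1.44 for Cyp2c67 and 10.3 for Cyp1a1. Over all 14484 genes tested, 2.19% were higher and 2.04% lower. In CMV-siRE livers Cyp2c67 rose and Cyp2a4 fell against CMV-scrR, where 2.06% of all genes were higher and 1.97% lower. Between CMV-GE11-siRE and CMV-siRE 0 of the 45 members passed in limma, where 0.0069% of all genes did, and 11 members had an unadjusted p under 0.05, against 7.66% of all genes. Against CMV-scrR an unadjusted p under 0.05 was found for 15 members with CMV-GE11-siRE (20.7% of all genes) and 11 with CMV-siRE (20% of all genes).

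The members made up 1.54, 1.95, 1.59 and 1.64% of the column total in CMV-GE11-siRE livers. The share was 1.44, 1.55, 1.58 and 1.36% in CMV-siRE livers and 1.30, 1.59, 1.37 and 1.51% in CMV-scrR livers. CMV-GE11-siRE library 2 stood highest. Libraries 3 and 4 of that circuit, at 1.592 and 1.637%, lay slightly above the highest CMV-scrR share of 1.589%. Library 1 lay within the CMV-scrR range, and CMV-siRE and CMV-scrR overlapped. The median difference over the 45 members was 0.11 with CMV-GE11-siRE against CMV-scrR and 0.06 with CMV-siRE, where the medians over all genes were 0.01 and 0.00. Above 0 were 29 members with CMV-GE11-siRE and 26 with CMV-siRE. CMV-GE11-siRE and CMV-scrR livers did not overlap for 8 members (11.2% of all genes), CMV-siRE and CMV-scrR for 7 (12.7%), and CMV-GE11-siRE and CMV-siRE for 5 (4.58%).

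Cyp1a1, which oxidises polycyclic aromatic hydrocarbons and is induced through AhR, lies at chr9:57687928-57703824 on the + strand of GRCm38. It had 1166, 81.6, 61.5 and 89.0 in CMV-GE11-siRE livers. With CMV-siRE it had 23.5, 22.7, 19.7 and 54.3, and with CMV-scrR 7.05, 14.3, 18.0 and 19.6. Each group of 4 lay wholly above the next, and CMV-GE11-siRE library 1 stood far above the other 3. The difference was 3.37 ± 0.74 for CMV-GE11-siRE against CMV-scrR (adjusted p = 0.0233) and 0.95 ± 0.74 for CMV-siRE against CMV-scrR, which did not pass (adjusted p = 0.516). CMV-GE11-siRE differed from CMV-siRE by 2.42 ± 0.74 (adjusted p = 0.495). Without CMV-GE11-siRE library 1 the difference from CMV-scrR was 2.39 ± 0.41 (adjusted p = 0.0204), and without CMV-scrR library 1 it was 3.07 and no longer passed (adjusted p = 0.0634).

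Cyp1a2, its neighbour on chromosome 9 on the opposite strand (chr9:57676937-57683703), metabolises caffeine and aromatic amines. CMV-GE11-siRE livers had 33159, 21734, 18728 and 16159, against 14095, 14924, 14594 and 14053 with CMV-siRE and 9957, 14903, 15502 and 11767 with CMV-scrR. All 4 CMV-GE11-siRE libraries were above all others, while CMV-siRE lay within the range of CMV-scrR. It rose by 0.75 ± 0.19 with CMV-GE11-siRE against CMV-scrR (adjusted p = 0.0398), and CMV-GE11-siRE differed from CMV-siRE by 0.58 ± 0.19 (adjusted p = 0.497). The call rested on single libraries: the adjusted p was 0.0783, 0.0893 and 0.0535 without CMV-GE11-siRE library 1, 2 and 3, and 0.106 and 0.0876 without CMV-scrR library 1 and 4. Cyp1b1, the remaining gene of the family, had 34.6 to 96.3 with CMV-GE11-siRE, 28.8 to 79.6 with CMV-siRE and 17.0 to 65.4 with CMV-scrR, and did not pass (0.65 ± 0.44 with CMV-GE11-siRE and 0.62 ± 0.44 with CMV-siRE).

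Other genes known to respond to AhR did not pass with either circuit in liver. Of 6 on a list outside the P450s 5 were tested, and limma gave 0 calls and 0 with an unadjusted p under 0.05, where 4.23% and 4.04% of all genes passed with CMV-GE11-siRE and CMV-siRE. Nqo1, a quinone reductase, differed by 0.06 and 0.03 with CMV-GE11-siRE and CMV-siRE against CMV-scrR, Tiparp by 0.06 and -0.05, and the repressor Ahrr by -0.76 and 0.24. The receptor gene Ahr itself rose with both circuits. It had 1468, 1449, 1488 and 1121 with CMV-GE11-siRE, 1431, 1365, 1311 and 1383 with CMV-siRE and 945, 1120, 1061 and 946 with CMV-scrR. Every library of either circuit lay above every CMV-scrR library, and both differences were 0.43 ± 0.10 (adjusted p = 0.0279 and 0.0283).

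The 250 bases upstream of the RefSeq start (GRCm38.p6, printed 5′ to 3′ on the gene's strand) are shown for Cyp1a1, since its liver difference was the largest of the members that passed. Its window is chr9:57697363-57697612 on the + strand, within the longer GENCODE gene. Capitals mark GCGTG, the core letters that AhR with Arnt is known to bind, at -54, and TATAAA, the TATA box letters, at -30, counted from the RefSeq start. Motifs were looked for on both strands after the sequences had been seen, and a match describes letters only.
Cyp1a1: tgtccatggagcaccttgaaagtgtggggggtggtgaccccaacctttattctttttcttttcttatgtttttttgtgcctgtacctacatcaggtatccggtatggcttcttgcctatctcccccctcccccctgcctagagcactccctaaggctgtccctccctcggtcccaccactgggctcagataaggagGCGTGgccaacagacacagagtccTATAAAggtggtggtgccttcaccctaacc
GCGTG occurred in 28.2% of 32851 RefSeq windows and in 8 of the 49 members with a window. TATAAA occurred in 12.4% of windows and in 23 of the 49 members. The Cyp1a2 window held TATAAA at -29 and no GCGTG.

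Cyp2b10, the standard target gene of CAR (chr7:25897620-25926624, + strand), had 760, 1320, 578 and 1002 in CMV-GE11-siRE livers. It had 643, 751, 716 and 344 with CMV-siRE, and 205, 454, 379 and 319 with CMV-scrR. All CMV-GE11-siRE libraries lay above all CMV-scrR libraries, and CMV-siRE overlapped both. The rise with CMV-GE11-siRE against CMV-scrR was 1.42 ± 0.30 (adjusted p = 0.0193, a fitted fold of 2.68). It did not pass without CMV-GE11-siRE library 2 (1.22, adjusted p = 0.0592) or CMV-scrR library 1 (1.20, adjusted p = 0.0529). With CMV-siRE the difference was 0.85 ± 0.30 and did not pass (adjusted p = 0.128).

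The other Cyp2b genes were above 0 too without passing. Cyp2b13, which is known as a female-predominant gene of mouse liver, had 3722, 7106, 4307 and 4855 with CMV-GE11-siRE, 4211, 6180, 6946 and 2457 with CMV-siRE and 2160, 2741, 2253 and 2746 with CMV-scrR. CMV-GE11-siRE did not overlap CMV-scrR. Its differences were 0.98 ± 0.27 with CMV-GE11-siRE (adjusted p = 0.0586) and 0.90 ± 0.27 with CMV-siRE (adjusted p = 0.0818), and without CMV-siRE library 4 the CMV-siRE difference was 1.20 and passed (adjusted p = 0.0156). Cyp2b9, likewise female-predominant, differed by 0.54 and 0.33 and Cyp2b19 by 0.94 and 1.01. Nr1i3, which encodes CAR, rose with CMV-GE11-siRE by 0.65 ± 0.11 (adjusted p = 0.00679). It had 5426, 5519, 5833 and 4991 with CMV-GE11-siRE, 4634, 4220, 4897 and 4486 with CMV-siRE and 2789, 4127, 3654 and 3440 with CMV-scrR, and its 3 groups did not overlap. Its CMV-siRE difference of 0.39 ± 0.11 did not pass (adjusted p = 0.0532).

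The Cyp2b10 window (chr7:25897408-25897657, + strand) is shown for comparison with that of Cyp1a1 and with those of the Cyp2a genes. Capitals mark GCGTG at -9, the same letters on the other strand (CACGC) at -101, and TTGCATAA at -58, which is TTATGNAA read on the other strand, the D-site letters bound by Dbp and its relatives.
Cyp2b10: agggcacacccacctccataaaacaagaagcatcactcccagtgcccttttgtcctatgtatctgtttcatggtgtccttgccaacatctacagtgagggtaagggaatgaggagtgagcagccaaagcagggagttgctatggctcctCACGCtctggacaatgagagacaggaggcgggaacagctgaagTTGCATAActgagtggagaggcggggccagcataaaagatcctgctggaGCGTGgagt
TTATGNAA occurred in 3.07% of all windows and in 5 of the 49 members, namely Cyp2a4, Cyp2a5, Cyp2b10, Cyp2b19 and Cyp2b23.

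**Figure D2:**
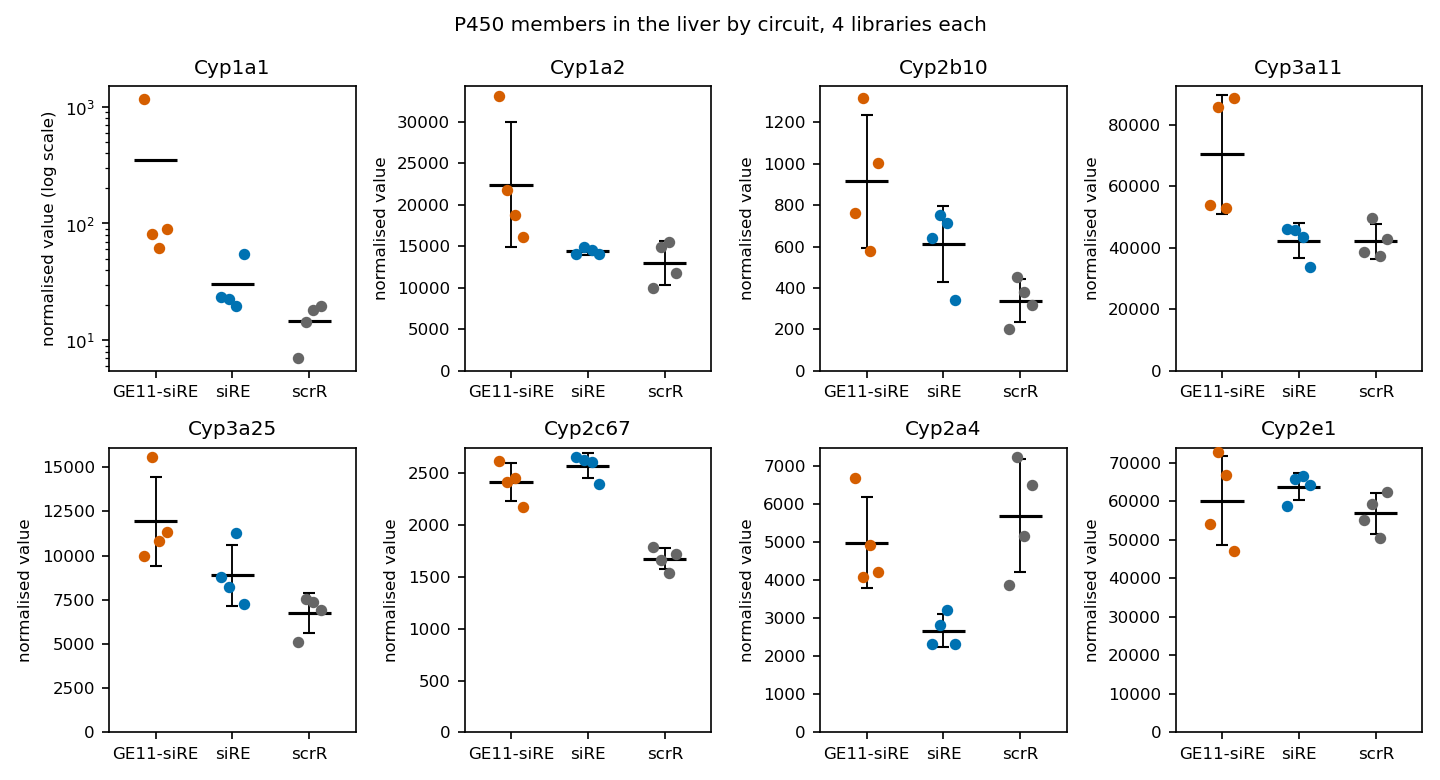
Normalized values of 8 members in liver, 1 point per library, for CMV-GE11-siRE, CMV-siRE and CMV-scrR from left to right. Lines mark group means and bars the SD of 4 libraries, and the Cyp1a1 panel has a log axis without bars. Cyp1a1, Cyp1a2, Cyp2b10, Cyp3a11 and Cyp3a25 lie higher with CMV-GE11-siRE than with CMV-scrR, Cyp2c67 with both circuits, and Cyp2a4 lies lower with CMV-siRE.

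Cyp3a11, the main PXR target of mouse liver (chr5:145854426-145879964, - strand), had 54117, 85846, 53131 and 88599 with CMV-GE11-siRE. It had 46066, 45837, 43495 and 33859 with CMV-siRE and 38610, 49739, 37290 and 43045 with CMV-scrR. All 4 CMV-GE11-siRE libraries lay above all others, 2 of them far above, and CMV-siRE overlapped CMV-scrR. It rose by 0.71 ± 0.18 with CMV-GE11-siRE against CMV-scrR (adjusted p = 0.0417) and differed by 0.00 with CMV-siRE. Between CMV-GE11-siRE and CMV-siRE the difference was 0.70 ± 0.18 (adjusted p = 0.373). The call was lost without CMV-GE11-siRE library 2 or 4 (adjusted p = 0.111 and 0.081) and without CMV-scrR library 1, 3 or 4 (adjusted p = 0.1, 0.101 and 0.0744).

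Cyp3a25 (chr5:145977194-146009618, - strand) had 9972, 15585, 10841 and 11338 with CMV-GE11-siRE, 8800, 8227, 11258 and 7238 with CMV-siRE and 5105, 7569, 7372 and 6938 with CMV-scrR. CMV-GE11-siRE lay wholly above CMV-scrR, and CMV-siRE overlapped both. Its rise of 0.82 ± 0.17 (adjusted p = 0.016, a fitted fold of 1.76) passed without any 1 library, while 0.39 ± 0.17 with CMV-siRE did not pass (adjusted p = 0.198). Of its 50-base stretches 26.8% also occur in other genes, mostly in Cyp3a59, so reads could be split between both. Cyp3a59 had 939 to 1714 with CMV-GE11-siRE, 664 to 1216 with CMV-siRE and 654 to 989 with CMV-scrR, and did not pass (0.63 ± 0.21 with CMV-GE11-siRE, adjusted p = 0.116).

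The other Cyp3a genes gave no call. Cyp3a13 differed by -0.04 and -0.07 with CMV-GE11-siRE and CMV-siRE against CMV-scrR, and Cyp3a44, female-predominant in mouse liver, by -0.02 and -0.31. Cyp3a16, also female-predominant, was very variable, at 30.6 to 713 with CMV-GE11-siRE, 12.7 to 296 with CMV-siRE and 164 to 1364 with CMV-scrR (-1.45 ± 1.10 and -2.54 ± 1.10). Cyp3a57 stayed below the filter in liver, at 8.80, 9.01, 11.9 and 5.03 with CMV-GE11-siRE, 2.54, 2.54, 7.64 and 0.842 with CMV-siRE and 0, 2.64, 0 and 0 with CMV-scrR. Nr1i2, which encodes PXR, differed by 0.15 and 0.01 and did not pass.

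Cyp2c67, a gene of the Cyp2c cluster (chr19:39608842-39649051, - strand), rose with both circuits. It had 2612, 2415, 2450 and 2176 with CMV-GE11-siRE, 2648, 2628, 2608 and 2397 with CMV-siRE and 1782, 1663, 1539 and 1717 with CMV-scrR. Both circuits lay wholly above CMV-scrR and overlapped each other, and among the CMV-scrR libraries it had the smallest coefficient of variation of the members tested, 6.16%. The differences were 0.53 ± 0.08 with CMV-GE11-siRE (adjusted p = 0.00449) and 0.62 ± 0.08 with CMV-siRE (adjusted p = 0.00122), or folds of 1.44 and 1.54. Both passed without any 1 library. Of its 50-base stretches 52.8% occur in another gene, 40% in Cyp2c40, so the split of reads within the cluster is uncertain.

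Of the 12 other Cyp2c genes tested none passed. The 13 had a median of 0.05 with CMV-GE11-siRE and 0.01 with CMV-siRE against CMV-scrR. Cyp2c29, one of the more abundant, had 13043, 20722, 13537 and 17128 with CMV-GE11-siRE, 12807, 11654, 13373 and 10900 with CMV-siRE and 18269, 20446, 14066 and 18139 with CMV-scrR. All CMV-siRE libraries were below all CMV-scrR libraries, and the difference of -0.53 ± 0.15 passed only without CMV-scrR library 3 (-0.64, adjusted p = 0.0377) or with CMV-GE11-siRE left out of the fit (adjusted p = 0.0375), being 0.0602 otherwise. Cyp2c55 differed by 0.78 ± 0.26 with CMV-GE11-siRE (adjusted p = 0.108) and passed only without CMV-scrR library 2 (1.00, adjusted p = 0.0401). Cyp2c69 and Cyp2c70 differed by -0.63 and -0.02 with CMV-GE11-siRE and by -0.42 and -0.22 with CMV-siRE.

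The windows of Cyp2c67 (chr19:39649043-39649292, - strand) and Cyp3a11 (chr5:145879855-145880104, - strand) are shown together, because both hold CAAAGTCCA, letters bound by the hepatocyte factor Hnf4a, in capitals at -125 and -109. Their TATAAA letters, also in capitals, lie at -40 and -234.
Cyp2c67: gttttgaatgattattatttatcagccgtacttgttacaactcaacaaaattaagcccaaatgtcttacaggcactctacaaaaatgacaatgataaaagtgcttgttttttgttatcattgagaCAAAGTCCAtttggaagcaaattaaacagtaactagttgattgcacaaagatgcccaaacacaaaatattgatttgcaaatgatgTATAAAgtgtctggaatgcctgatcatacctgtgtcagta
Cyp3a11: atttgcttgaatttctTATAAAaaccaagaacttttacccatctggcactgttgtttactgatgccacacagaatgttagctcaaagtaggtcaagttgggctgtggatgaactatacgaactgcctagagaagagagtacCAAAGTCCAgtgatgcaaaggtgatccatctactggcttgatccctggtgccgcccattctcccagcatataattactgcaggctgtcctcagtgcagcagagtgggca
CAAAGTCCA occurred in 0.384% of all windows and in 8 of the 49 members, namely Cyp2c40, Cyp2c65, Cyp2c67, Cyp2c68, Cyp2c69, Cyp2c70, Cyp3a11 and Cyp3a16. The Cyp3a25 window held none of the 4 motifs.

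Cyp2a4, a steroid 15-alpha-hydroxylase (chr7:26307169-26315088, + strand), was the member that fell in liver, with CMV-siRE. It had 6673, 4079, 4922 and 4212 with CMV-GE11-siRE, 2309, 2826, 3198 and 2323 with CMV-siRE and 3858, 7223, 5163 and 6481 with CMV-scrR. The CMV-siRE libraries lay below all others, and CMV-GE11-siRE overlapped CMV-scrR. It fell by 1.07 ± 0.19 on the log2 scale with CMV-siRE against CMV-scrR (adjusted p = 0.0129, a fold of 0.478), and the call was kept without any 1 library. With CMV-GE11-siRE it differed by -0.18 from CMV-scrR and by 0.89 ± 0.19 from CMV-siRE (unadjusted p = 0.00048, adjusted p = 0.297), so that the difference between both EGFR circuits did not pass.

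Cyp2a5, which shares 36.1% of the 50-base stretches of Cyp2a4, had 5679, 10751, 5758 and 7182 with CMV-GE11-siRE, 5042, 5431, 7474 and 4681 with CMV-siRE and 6077, 6619, 16400 and 7018 with CMV-scrR. The groups overlapped, and the differences from CMV-scrR were -0.22 and -0.57 (adjusted p = 0.289 with CMV-siRE). Cyp2a22 differed by -0.12 and -0.56 and Cyp2a12 by 0.07 and -0.06. All 4 Cyp2a genes were thus below 0 with CMV-siRE, with a median of -0.56, of which Cyp2a4 alone passed.

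The D-site letters lie near the start of both Cyp2a genes. The 300-base windows of Cyp2a4 (250 upstream bases at chr7:26306942-26307191, + strand) and Cyp2a5 (chr7:26835089-26835338, + strand) were identical at 294 of 299 aligned bases, or 98.3%. TTGCATAA, in capitals, begins at -70 and -71, and TATAAA at -28 and -29.
Cyp2a4: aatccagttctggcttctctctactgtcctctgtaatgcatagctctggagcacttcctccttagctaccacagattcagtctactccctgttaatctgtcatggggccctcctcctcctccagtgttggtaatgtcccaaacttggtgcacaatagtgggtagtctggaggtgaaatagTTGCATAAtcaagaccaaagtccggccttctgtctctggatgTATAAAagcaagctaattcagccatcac
Cyp2a5: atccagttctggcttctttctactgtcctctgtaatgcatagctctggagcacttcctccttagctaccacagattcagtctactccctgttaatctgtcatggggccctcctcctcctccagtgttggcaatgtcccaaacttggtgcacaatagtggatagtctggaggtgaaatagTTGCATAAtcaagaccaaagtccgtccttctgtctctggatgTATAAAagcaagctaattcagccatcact
They are shown because these 2 genes had the largest positive differences from CMV-scrR of the members tested in kidney.

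The most abundant members of liver did not pass. Cyp2e1 (chr7:140763739-140774987, + strand) had 54096, 72688, 66868 and 47156 with CMV-GE11-siRE, 58655, 65827, 66503 and 64271 with CMV-siRE and 55163, 59412, 50359 and 62536 with CMV-scrR. The groups overlapped, at 0.07 ± 0.13 and 0.17 ± 0.13 (adjusted p = 0.827 and 0.52). Of 7 Cyp2d genes tested none passed, with medians of 0.19 and 0.34. Cyp2d26 had 14174 to 20669, 14588 to 16490 and 12856 to 16172 with CMV-GE11-siRE, CMV-siRE and CMV-scrR (0.27 ± 0.12, adjusted p = 0.221, and 0.11). Cyp2d10 and Cyp2d34 did not overlap between CMV-siRE and CMV-scrR, at 0.61 ± 0.21 (adjusted p = 0.125) and 0.75 ± 0.24 (adjusted p = 0.0935), and Cyp2d34 passed without CMV-scrR library 2 (0.92, adjusted p = 0.0481). Cyp2d9, male-predominant in mouse liver, had 695 to 2829 with CMV-GE11-siRE, 1158 to 2092 with CMV-siRE and 606 to 2428 with CMV-scrR.

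Of the 3 Cyp2j genes tested in liver, Cyp2j6 had 1220, 1369, 1081 and 1097 with CMV-GE11-siRE, 1007, 1024, 1143 and 959 with CMV-siRE and 901, 985, 1049 and 978 with CMV-scrR. CMV-GE11-siRE lay above CMV-scrR without overlap, at 0.28 ± 0.09 (adjusted p = 0.108). Cyp2j5 differed by 0.20 and 0.25. Cyp2s1 was at -1.31 ± 0.54 with CMV-GE11-siRE (adjusted p = 0.185), and Cyp2r1, a vitamin D 25-hydroxylase, at -0.13 with CMV-siRE without overlap of the groups.

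**Figure D3:**
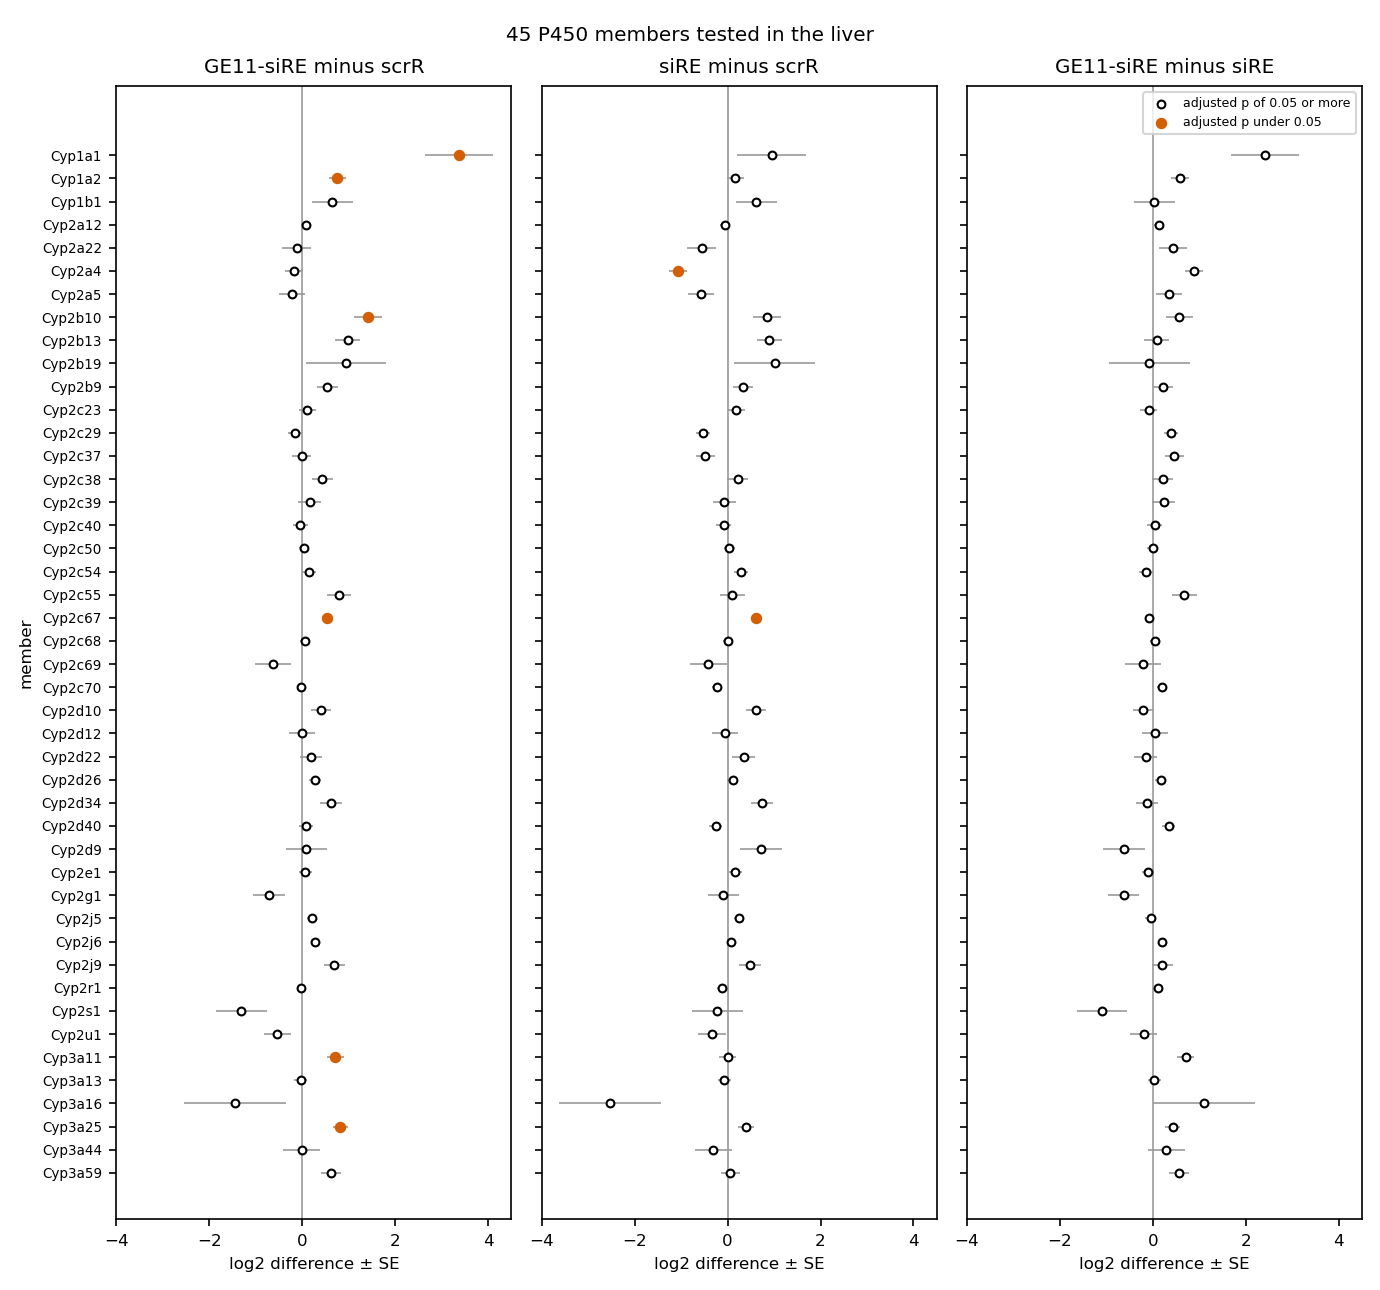
Log2 differences with their SE of the 45 members tested in liver, in 3 panels for CMV-GE11-siRE minus CMV-scrR, CMV-siRE minus CMV-scrR and CMV-GE11-siRE minus CMV-siRE. Filled points have an adjusted p under 0.05 (limma, over all genes): 6 in the first panel, 2 in the second and 0 in the third.

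Of the partners of P450 enzymes in liver 1 passed. Over all genes tested, 2.19% were higher and 2.04% lower with CMV-GE11-siRE against CMV-scrR, and 2.06% and 1.97% with CMV-siRE. Of 7 genes for electron transfer and haem supply, Cyb5a, the microsomal cytochrome b5, rose with CMV-GE11-siRE by 0.43 ± 0.10 (adjusted p = 0.035), and with CMV-siRE limma gave 0 calls and 3 unadjusted p under 0.05. The reductase Por differed from CMV-scrR by -0.16 with CMV-GE11-siRE and -0.28 with CMV-siRE, and Alas1, the first enzyme of haem synthesis, by 0.43 and 1.00, without passing. Among 16 receptors and liver transcription factors 2 rose and 1 fell with CMV-GE11-siRE, and 1 rose and 2 fell with CMV-siRE. Besides Ahr and Nr1i3 these were Rxra, the partner receptor of CAR and PXR, which fell with both by 0.40 ± 0.09 and 0.38 ± 0.09 (adjusted p = 0.0281 and 0.0378), and Cebpa, which fell with CMV-siRE by 0.60 ± 0.11 (adjusted p = 0.0136).

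Of 27 conjugation and transport genes 2 rose with CMV-GE11-siRE, the carboxylesterase Ces2a by 0.93 ± 0.12 (adjusted p = 0.00266) and the drug exporter Abcb1a by 0.56 ± 0.13 (adjusted p = 0.0281). With CMV-siRE 3 rose, Ces2a by 0.61, Abcc2 by 0.42 and Slco1a1 by 1.37 (adjusted p = 0.0176, 0.0437 and 0.0333). Of 14 P450 genes of other families Cyp8b1, which makes cholic acid, fell with CMV-GE11-siRE by 1.92 ± 0.48 (adjusted p = 0.0398). With CMV-siRE the fatty acid hydroxylase Cyp4a12a rose by 3.39, and Cyp17a1, Cyp27a1 and Cyp39a1 fell by 1.19, 0.36 and 0.77. Of all genes 2.19% rose and 2.04% fell with CMV-GE11-siRE, and 2.06% and 1.97% with CMV-siRE. Cyp4a12a and Slco1a1 were both on a list of male-biased liver genes. That list summed to 1540 to 2271 with CMV-GE11-siRE, 2108 to 3274 with CMV-siRE and 2324 to 2839 with CMV-scrR. A list of female-biased genes summed to 9602 to 12743, 4760 to 12728 and 5043 to 12641. The part of sex in these values was not tested.

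Other measures were looked at in the same livers, and some of them differed between circuits. Hepatocyte markers gave 0 calls among 8 in limma (2 and 1 with an unadjusted p under 0.05 for CMV-GE11-siRE and CMV-siRE). They summed to 9.15 to 10.2% of the column total with CMV-GE11-siRE, 8.90 to 9.64% with CMV-siRE and 7.14 to 12.1% with CMV-scrR. In these bulk tissues fewer cells of a type and less RNA per cell cannot be told apart. The acute phase gene Saa1 was at 40906 to 49546 with CMV-GE11-siRE, 42824 to 64354 with CMV-siRE and 1553 to 16422 with CMV-scrR. It rose by 3.12 with CMV-GE11-siRE and 3.34 with CMV-siRE (adjusted p = 0.0146 and 0.0133), and its part in the P450 values was not tested. The Y-linked gene Ddx3y was at 4.33, 6.30, 1.18 and 7.96 with CMV-GE11-siRE, 10.5, 1.25, 13.9 and 2.94 with CMV-siRE and 0.607, 0.614, 0 and 1.77 with CMV-scrR. With the level of Ddx3y as a covariate 0 members passed in either comparison, and Cyp2c67 had adjusted p of 0.0836 and 0.064. Of all genes 23 and 20 passed in these fits, against 612 and 585 without the covariate. Most of the Ddx3y values were under the filter value of 10, and they partly followed the circuits. Its level and the circuit can thus not be fully told apart, and its part in the P450 values was not tested. The clock gene Nr1d1 fell by 1.40 ± 0.34 with CMV-GE11-siRE (adjusted p = 0.037). With the level of Dbp, a clock output factor, as a covariate Cyp2c67 and Cyp3a25 passed, and Cyp1a1, Cyp1a2, Cyp2b10 and Cyp3a11 did not (adjusted p = 0.0597, 0.101, 0.0635 and 0.123). In that fit 219 of all genes passed, against 612 without the covariate.

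In kidney 0 of the 22 members passed in any comparison in limma, where 0% of 15105 genes did. An unadjusted p under 0.05 was found for 3 members with CMV-GE11-siRE and 6 with CMV-siRE against CMV-scrR, and 0 between both, against 8.06%, 9.84% and 3.97% of all genes. The 2 Cyp2a genes had the highest differences, and Cyp2j5 and Cyp2j11 had fitted differences below 0 with both circuits. The lowest differences were among the Cyp2d genes, at -1.32 with CMV-GE11-siRE and -1.17 with CMV-siRE. A Cyp2c gene was at -1.04 with CMV-siRE, and the lowest Cyp2j differences were -0.59 and -0.54. The groups did not overlap for 4 members with CMV-GE11-siRE (5.93% of genes) and 5 with CMV-siRE (18.3%) against CMV-scrR.

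Cyp2j5 (chr4:96628773-96664154, - strand) had 14790, 12393, 15722 and 8565 with CMV-GE11-siRE, 9266, 13599, 15451 and 9920 with CMV-siRE and 16979, 17321, 16310 and 17683 with CMV-scrR. All CMV-scrR libraries were above all libraries of both circuits, and spread far less. The differences were -0.45 ± 0.21 and -0.53 ± 0.21 (adjusted p = 0.52 and 0.475). Cyp2j6 likewise did not overlap, at 449 to 831, 621 to 819 and 847 to 942 with CMV-GE11-siRE, CMV-siRE and CMV-scrR, while Cyp2j11, at 1891 to 2832, 1396 to 3044 and 2300 to 2801, did. Cyp2d26, second in the kidney, differed by -0.30 and -0.51. The 7 proximal tubule markers summed to 205608 to 272887 with CMV-GE11-siRE, 114572 to 286880 with CMV-siRE and 238730 to 285453 with CMV-scrR. Limma gave 0 calls among them (1 and 3 with an unadjusted p under 0.05 for CMV-GE11-siRE and CMV-siRE), and their part in these values was not tested.

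The Cyp2a genes and several others below were singled out after their kidney values were seen. Cyp2a5 had 470, 1720, 1818 and 1643 with CMV-GE11-siRE, 1323, 1295, 3093 and 1765 with CMV-siRE and 875, 457, 679 and 459 with CMV-scrR. CMV-siRE lay wholly above CMV-scrR, and CMV-GE11-siRE did so except for its first library. The differences were 1.07 ± 0.42 and 1.56 ± 0.42 (adjusted p = 0.52 and 0.372), and the CMV-siRE difference passed with CMV-GE11-siRE left out of the fit (adjusted p = 0.0256), in which 1116 of all genes passed, against 0 in the fit of 12 libraries. Cyp2a4 had 476, 623, 512 and 3153 with CMV-GE11-siRE, 755, 498, 1209 and 774 with CMV-siRE and 111, 619, 169 and 214 with CMV-scrR, overlapping through 1 control library (1.89 ± 0.61 and 1.78 ± 0.61).

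The clock output gene Dbp is given beside them as an indicator gene, and its part in the Cyp2a values was not tested. It had 78.8, 1321, 52.9 and 790 with CMV-GE11-siRE, 871, 1182, 2108 and 1096 with CMV-siRE and 57.6, 55.8, 109 and 76.3 with CMV-scrR. The CMV-siRE libraries and 2 of CMV-GE11-siRE were high, and all others low, and its differences of 1.83 ± 0.85 and 4.09 ± 0.85 did not pass (adjusted p = 0.265 with CMV-siRE). With the level of Dbp as a covariate the CMV-GE11-siRE differences were 1.35 for Cyp2a4 and 0.67 for Cyp2a5, and 0 of all genes passed. Dbp was high in all CMV-siRE libraries and low in all CMV-scrR libraries, so its level and that circuit cannot be told apart. Hours of tissue collection are not in the labels.

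**Figure D4:**
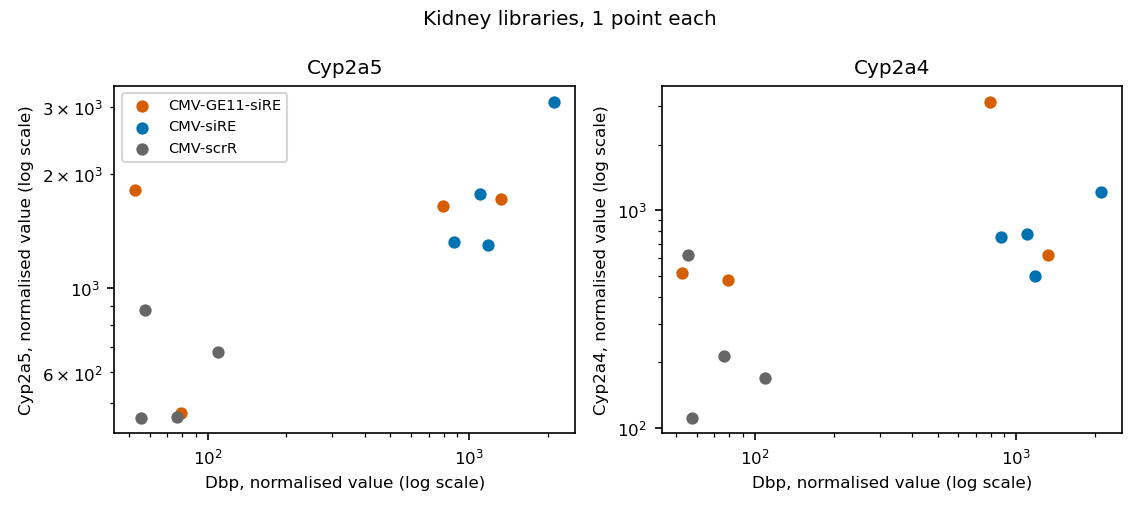
Normalized values of Cyp2a5 and Cyp2a4 against Dbp in the 12 kidney libraries, 1 point per library, on log axes. The 4 CMV-siRE libraries lie at high Dbp, the 4 CMV-scrR libraries at low Dbp, and the CMV-GE11-siRE libraries at both, with 1 of them highest in Cyp2a4.

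Cyp3a13 in kidney had 16.3, 26.1, 19.3 and 27.4 with CMV-GE11-siRE, 26.3, 37.5, 26.4 and 57.0 with CMV-siRE and 14.3, 13.7, 12.4 and 15.4 with CMV-scrR. Both circuits lay above CMV-scrR without overlap, at 0.61 and at 1.27 ± 0.31 (for CMV-siRE an adjusted p of 0.307, or 0.04 when CMV-GE11-siRE was left out of the fit). Cyp2e1 had 1193 to 2844 with CMV-GE11-siRE, 1798 to 4545 with CMV-siRE and 1211 to 1760 with CMV-scrR, so that CMV-siRE lay above CMV-scrR (0.96 ± 0.34, adjusted p = 0.452). The summed level of 4 adipocyte markers, a list added after the values were seen, was 243 to 1897 with CMV-GE11-siRE, 211 to 15539 with CMV-siRE and 189.8 to 1613 with CMV-scrR, and its part in the Cyp2e1 values was not tested. Hepatocyte markers summed to 892 to 1889 with CMV-GE11-siRE, 996 to 13433 with CMV-siRE and 637 to 1063 with CMV-scrR. Their share was highest, at 0.0786% of the column total, in CMV-siRE library 4, which also had the highest Cyp3a13. The part of hepatocyte RNA in the kidney values of the members was not tested.

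In lung 0 of 16 members passed in any comparison in limma, where 0% of 16165 genes passed with CMV-GE11-siRE against CMV-scrR, 1.41% with CMV-siRE against CMV-scrR and 0.0619% between both circuits. An unadjusted p under 0.05 was found for 3, 3 and 1 members, against 7.9%, 17.6% and 9.97% of all genes. The counts against CMV-scrR include Cyp3a11, which passed the filter only through libraries of the EGFR circuits. Cyp1a1 had 731, 9375, 2452 and 8860 with CMV-GE11-siRE, 1979, 1444, 1034 and 1740 with CMV-siRE and 526, 705, 924 and 1827 with CMV-scrR. Of the CMV-GE11-siRE libraries 2 were far above all others, 1 was moderately above and 1 lay within the control range. The difference from CMV-scrR was 1.97 ± 0.65 with CMV-GE11-siRE and 0.76 with CMV-siRE (adjusted p = 0.394 and 0.59). Of 6 AhR target genes outside the P450s limma called 0 in lung with either circuit, and 1 with CMV-GE11-siRE and 2 with CMV-siRE had an unadjusted p under 0.05. Ahrr had 35.6 to 122.8 with CMV-GE11-siRE, 25.6 to 86.3 with CMV-siRE and 9.85 to 25.7 with CMV-scrR (1.97 and 1.44, adjusted p = 0.164 and 0.12), while Tiparp differed by 0.03 and 0.33.

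**Figure D5:**
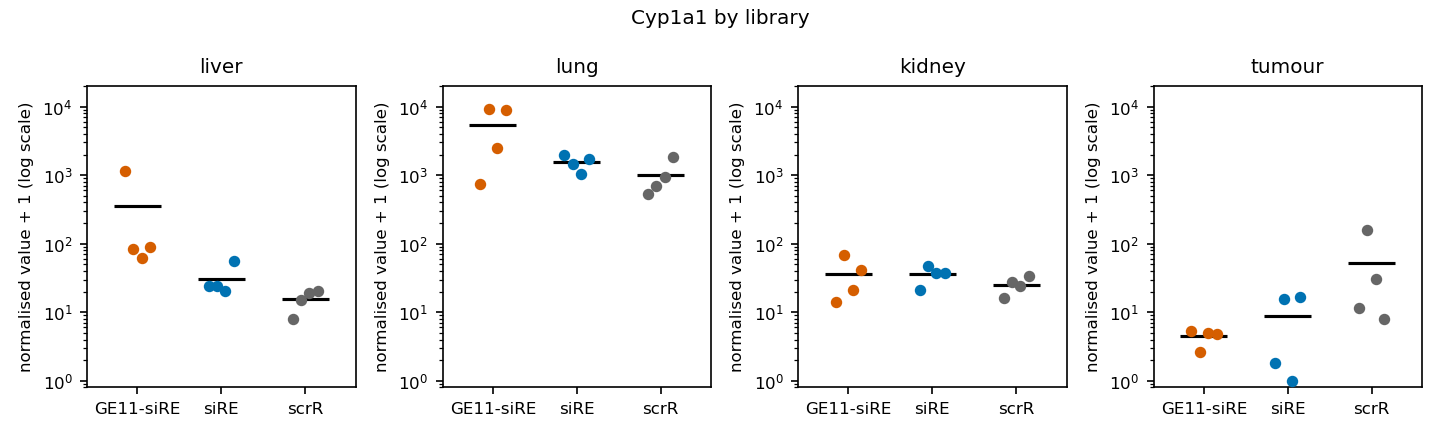
Cyp1a1 values plus 1 on a log axis in liver, lung, kidney and tumour, 1 point per library, for CMV-GE11-siRE, CMV-siRE and CMV-scrR from left to right, with lines at the group means. In liver the 3 groups do not overlap, in lung 2 CMV-GE11-siRE libraries stand at 9375 and 8860, and in tumour the CMV-GE11-siRE libraries lie below the CMV-scrR libraries as the values were given; each tissue's table was normalized on its own.

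Cyp2b10, the leading member of lung, had 2498, 3272, 2356 and 3439 with CMV-GE11-siRE, 2907, 2652, 2073 and 3036 with CMV-siRE and 3815, 3891, 4188 and 3358 with CMV-scrR. CMV-siRE lay wholly below CMV-scrR and CMV-GE11-siRE overlapped it by 1 library. The differences, -0.41 ± 0.14 and -0.53 ± 0.14, did not pass (adjusted p = 0.423 and 0.0759). The fitted direction for CMV-GE11-siRE was opposite to that in liver. Cyp2s1, second in lung, had 2208 to 3437, 2278 to 2573 and 2497 to 3652 with CMV-GE11-siRE, CMV-siRE and CMV-scrR (-0.20 and -0.37 ± 0.14, adjusted p = 0.175 with CMV-siRE). With CMV-siRE against CMV-scrR the groups did not overlap for 3 members, Cyp2b10, Cyp2c23 and Cyp3a11, where 12.5% of all genes did not overlap. Of these, Cyp3a11 passed the filter only through libraries of the EGFR circuits.

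Cyp3a11 in lung had 0.970, 18.0, 2.96 and 31.8 with CMV-GE11-siRE, 11.8, 9.90, 23.6 and 5.19 with CMV-siRE and 1.01, 0, 2.12 and 0 with CMV-scrR. The CMV-siRE libraries were all above the CMV-scrR libraries. Values of 10 or more came only from the EGFR circuits, so Cyp3a11 entered the test through the groups where it was high. With CMV-scrR near 0, its difference is not given. The hepatocyte gene Alb, which encodes albumin, had 69.9, 221, 81.9 and 499 with CMV-GE11-siRE, 196, 220, 413 and 121 with CMV-siRE and 76.4, 33.5, 49.8 and 33.4 with CMV-scrR. All CMV-siRE libraries were again above CMV-scrR, and CMV-GE11-siRE libraries 2 and 4 were the highest of their group for both genes. The hepatocyte markers summed to 107 to 761 with CMV-GE11-siRE, 214 to 745 with CMV-siRE and 51.7 to 116 with CMV-scrR, and of 7 tested 1 rose with CMV-siRE, Apoa1 by 3.31 (adjusted p = 0.0212). Their part in the Cyp3a11 values was not tested.

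In spleen 0 of 10 members passed in limma, where 5.76%, 4.61% and 0.112% of 16015 genes passed with CMV-GE11-siRE against CMV-scrR, CMV-siRE against CMV-scrR and CMV-GE11-siRE against CMV-siRE. An unadjusted p under 0.05 was found for 1 member, Cyp1b1 with CMV-siRE, where 24.5%, 20.9% and 9.79% of all genes had one. Cyp1b1 had 1695, 921, 1184 and 1359 with CMV-GE11-siRE, 1329, 1460, 1046 and 1314 with CMV-siRE and 771, 788, 1273 and 1082 with CMV-scrR. The groups overlapped, at 0.40 ± 0.19 and 0.42 ± 0.19 (adjusted p = 0.226 and 0.238). Cyp2j6 alone did not overlap, at 36.4 to 40.3 with CMV-GE11-siRE against 20.9 to 34.1 with CMV-scrR (0.43), where 13.7% of genes did not overlap. Cyp2d22 and Cyp2s1 overlapped between all groups, at 96.0 to 260 and 92.2 to 185 with CMV-GE11-siRE, 152 to 171 and 127 to 191 with CMV-siRE and 84.8 to 226 and 100.1 to 173 with CMV-scrR. In CMV-scrR library 1 Cyp2e1, Cyp3a11 and the hepatocyte gene Alb had 83.8, 61.6 and 1731. Hepatocyte markers made up 0.0138% of the column total there, 0.00788% in CMV-siRE library 2 and 0.00465% in CMV-GE11-siRE library 3. They made up less in all other spleen libraries, and their part in the Cyp2e1 and Cyp3a11 values was not tested.

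In thymus 0 of 15 members passed in limma, where 0%, 0.00609% and 0% of 16421 genes passed in the same 3 comparisons. An unadjusted p under 0.05 was found for 1, 4 and 1 members, against 9.44%, 5.65% and 2.81% of all genes. Cyp2a5, the leading member, had 164, 234, 178 and 515 with CMV-GE11-siRE, 211, 278, 218 and 372 with CMV-siRE and 167, 224, 223 and 169 with CMV-scrR, which overlap (0.33 and 0.44). Cyp1b1 differed by 0.02 with each circuit. The groups did not overlap for 3 members with CMV-siRE against CMV-scrR (17.7% of genes), Cyp2d22 (0.77 ± 0.34, adjusted p = 0.699), Cyp2t4 (0.74) and Cyp2r1 (-0.70), and for Cyp2t4 between CMV-GE11-siRE and CMV-siRE (-0.71, 1.5% of genes). Cyp2e1, chosen after its values were seen, had 29.5, 28.7, 60.3 and 81.9 with CMV-GE11-siRE, 213, 268, 7.48 and 508 with CMV-siRE and 10.8, 20.6, 19.2 and 68.9 with CMV-scrR. Of the CMV-siRE libraries 3 were high and 1 was the lowest of all (2.36 ± 1.04, adjusted p = 0.699). The adipocyte gene Adipoq, at 108, 181, 4.34 and 145 in those CMV-siRE libraries, was lowest in the same library. Its highest value of them was in library 2, and that of Cyp2e1 in library 4. The adipocyte markers, a list added after the values were seen, summed to 529 to 1131 with CMV-GE11-siRE, 334.5 to 2327 with CMV-siRE and 355 to 1686 with CMV-scrR. Their part in the Cyp2e1 values was not tested.

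In tumour 0 of 9 members passed in limma, where 41.9% of 14044 genes passed with CMV-GE11-siRE against CMV-scrR, 0.256% with CMV-siRE against CMV-scrR and 0.0214% between both circuits. An unadjusted p under 0.05 was found for 1, 2 and 0 members, against 50.5%, 21.4% and 26.2% of all genes. Cyp1a1, singled out after its values were seen, had 4.34, 1.66, 3.92 and 3.88 with CMV-GE11-siRE, 0.807, 14.6, 0 and 15.7 with CMV-siRE and 10.6, 156, 29.6 and 6.89 with CMV-scrR. As the values were given CMV-GE11-siRE lay wholly below CMV-scrR, and CMV-siRE overlapped both. Both groups lay apart, in either direction, for 2 members and 45.2% of all genes. The differences were -2.58 ± 1.07 and -2.47 ± 1.07 (adjusted p = 0.0671 and 0.205), the first passing without CMV-scrR library 4 (-3.15, adjusted p = 0.0424) or with the level of Ddx3y as a covariate (-2.53, adjusted p = 0.0395). Ddx3y was at 422 in CMV-GE11-siRE library 2, 400.4 and 330.2 in CMV-siRE libraries 2 and 4 and 418 in CMV-scrR library 2, and under 10 in the other tumour libraries. The highest Cyp1a1 value, 156, came from 1 of these 4 libraries, and its part in the tumour values was not tested.

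Cyp2b10, the leading member of tumour, had 181, 56.1, 175 and 161 with CMV-GE11-siRE, 40.1, 236, 70.1 and 1206 with CMV-siRE and 286, 395, 227 and 267 with CMV-scrR. The values 56.1, 236, 1206 and 395 are from the 4 libraries with high Ddx3y. CMV-GE11-siRE lay wholly below CMV-scrR as the values were given, at -1.14 ± 0.78 (adjusted p = 0.256), but scaled by the column total the difference was 0.94. That scaling moved the median over all genes from 0.05 to 2.13, so no direction is given for tumour members. It also turned Cyp2a5 from -1.41 to 0.50 and Cyp2e1 from -1.33 to 0.61, and left Cyp1a1 at -0.78. Cyp2s1 had 122, 129, 336 and 168 with CMV-GE11-siRE, 36.4, 439.9, 34.7 and 181 with CMV-siRE and 433, 131, 64.3 and 144 with CMV-scrR, and the groups overlapped. Mitochondrial transcripts made up on average 20.6% of the column total with CMV-GE11-siRE, 60.1% with CMV-siRE and 68.6% with CMV-scrR. The hepatocyte markers summed to 6.70 to 15.2 with CMV-GE11-siRE, 28.2 to 181 with CMV-siRE and 86.9 to 1123 with CMV-scrR. Their part in the tumour values was not tested.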

How the data were processed

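Total RNA was extracted with TRIzol and sequenced from Illumina TruSeq RNA libraries, per the labels' protocols, which do not say whether strand was kept. The deposited tables hold, for each of 6 tissues, fractional gene values that the authors normalized across the 12 libraries of that tissue, a signal per gene whose depth per library is unknown. DESeq2 is named, without its role or version, per the submitters' processing notes, and which aligner, counter, build and annotation they used is not given in the sources used here. All 36047 mouse identifiers matched GENCODE M21 (GRCm38) by identifier, which gave symbols, coordinates and exon lengths, and the shared 50-base stretches come from its transcripts.

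The logged values, log2(value + 1), of genes that reached 10 in at least 4 of 12 libraries were tested by limma-trend (limma 3.58.1, R 4.3.3) and tabulated with Python 3.11.15 and pandas 2.3.3. The fit was tested on simulated data. No count model was used, since the values are not counts. Alternatives were a pseudocount of 0.1, no filter, 8 libraries, the replicate number as a block, scaling by the column total, Ddx3y or Dbp as covariate, and each library left out in turn. Within a tissue the replicate numbers were not taken to pair libraries of different circuits, and pairing across tissues was not examined. The p-values reflect only how far these libraries spread, which may be technical.

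The members, lists and tests were chosen with earlier results of these data known. Named by rule were members that passed in a tissue, the 3 highest per length in each tissue's controls, and Cyp1a1, Cyp1a2, Cyp1b1, Cyp2b10, Cyp2e1 and Cyp3a11 in liver. From each list up to 4 genes that passed, or the most abundant, were named, with Ddx3y, Dbp, Nr1d1, Saa1 and Alb as indicators. Any other gene was named after its values were seen. Promoter windows are RefSeq's (GRCm38.p6), found for 49 of 57 members.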

Additional observations from a re-analysis of the deposited data

Results flagged for a closer look

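Chance flags about 1 in 20 groups for a sample that stands apart, and 75 groups of 4 gave 6. In liver these were Cyp1a1 in the first CMV-GE11-siRE library (1166) and the fourth CMV-siRE library (54.3), and Cyp2c67 in the fourth CMV-siRE library (2397). In tumour they were Cyp2a5 in the fourth CMV-GE11-siRE library (75.2), and Cyp2b10 in the second CMV-GE11-siRE library (56.1) and the fourth CMV-siRE library (1206). These last 2 libraries are among the 4 of tumour with Ddx3y at 330.2 or more, and its part was not tested.

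For 3 members the CMV-GE11-siRE libraries lay wholly above the CMV-scrR libraries in 1 tissue and wholly below them in another. These groups lay apart, in either direction, for 11.2% of all genes in liver, 45.2% in tumour, 5.93% in kidney and 13.7% in spleen. How many of all genes lay apart in opposite directions was not counted. Cyp1a1 differed by 3.37 in liver and, as the values were given, by -2.58 in tumour, where scaling by the column total gave -0.78. Cyp2b10 differed by 1.42 in liver and by -1.14 in tumour, where scaling by the column total gave 0.94. Cyp2j6 differed by 0.28 in liver and 0.427 in spleen, and by -0.345 in kidney. These differences between tissues were not tested, because each tissue was normalized on its own.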

How the results depend on the processing

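In liver 6 members passed with CMV-GE11-siRE against CMV-scrR. The count was 2 with Dbp and 0 with Ddx3y as covariate, where the count over all genes went from 612 to 219 and 23. It was 2 to 7 with 1 library left out (272 to 676 genes in all). It was lowest without the first CMV-scrR library (2, with 303 genes in all) and 3 without the second CMV-GE11-siRE library (311). The 2 calls with CMV-siRE became 0 with Ddx3y as covariate (20 genes in all, against 585), and 2 to 3 with 1 library left out (184 to 533). With no filter Cyp3a57 passed in liver (2.76, adjusted p = 0.0205). In kidney 2 members passed with CMV-siRE when only the 8 libraries compared were fitted, where 1116 genes in all passed, against 0. In lung 1 member, Cyp2c70, passed with CMV-siRE with no filter (1.88, adjusted p = 0.0329). For tumour CMV-GE11-siRE against CMV-scrR 0 became 1 with Ddx3y as covariate (Cyp1a1), 1 with no filter (Cyp3a11), 2 with 8 libraries (Cyp2b10 and Cyp2d22), 7 scaled by the column total (of 12025 genes in all, against 5890) and 0 to 1 with 1 library left out. Between CMV-GE11-siRE and CMV-siRE in tumour 4 passed scaled by the column total (of 11201 genes in all, against 3). The cause was not tested. In every other comparison 0 members passed with any 1 library left out.

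Within a tissue, correlations of same-numbered libraries of different circuits lay between -0.28 and 0.27, with a pair under 0.1 in each comparison. The numbers were thus not taken as pairs there. With the replicate block 4 and 2 members passed in liver with CMV-GE11-siRE and CMV-siRE, Cyp1a2 and Cyp3a11 being lost (adjusted p = 0.0674 and 0.0515), and 431 and 415 genes in all. Without the 4 other libraries in the fit Cyp1a1, Cyp1a2 and Cyp3a11 did not pass with CMV-GE11-siRE and Cyp2b13 did (adjusted p = 0.0294), where 274 genes in all passed. Over 63 single-gene results with an unadjusted p under 0.05 the alternatives gave 896 values on the same side of the threshold, 32 that lost it, 10 that gained it and 0 with the opposite sign. Of members outside these 63, Cyp2b10, Cyp2a5 and Cyp2e1 in tumour with CMV-GE11-siRE turned sign scaled by the column total, at 0.94, 0.50 and 0.61 against -1.14, -1.41 and -1.33. Depth per library is unknown, reads of near-identical copies can be split between genes, and members below the filter were not tested.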
